A study of Mus musculus with 5 samples.

Results

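Across 5 libraries of cultured mouse neural stem/progenitor cells (NSPCs), the RNA of 46 genes of DNA replication and entry into S phase was lowest in the library labelled WT 1, intermediate in the pair labelled WT 4 and p75NTR-/- 4, and highest in p75NTR-/- 1 and p75NTR-/- 2. Within replicate number 1 the library labelled p75NTR-/- was higher than the one labelled WT by a median log2 difference of 1.28, whereas within replicate number 4 the median was -0.13. No member passed the test between labels. The genes were chosen by symbol for their known part in replication, and all 46 had a gene sum among the 12588 gene sums of the data, built from 65 of 22227 transcripts. Of these members, 45 had a mean of at least 50 normalized counts over the 5 libraries, and Gins3 was just under that minimum with a mean of 49.3.

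DNA replication is prepared before S phase, when the origin recognition complex, Cdc6 and Cdt1 load the ring-shaped Mcm2-7 helicase onto DNA, a step called licensing. Cdc45 and the GINS complex later join Mcm2-7 to make the active helicase, polymerase alpha with primase starts each strand, and polymerases delta and epsilon extend it while held by the Pcna clamp. E2F transcription factors switch on many of these genes at the passage from G1 to S phase, so their RNA is abundant in cycling progenitors and scarce in resting or differentiating cells.

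The 5 libraries came from NSPCs of C57BL/6J mice that received no treatment and were kept proliferating with the growth factors EGF and FGF-2, each at 20 ng/ml. Replicates 1 and 4 were labelled WT (genotype p75NTR+/+, litter mates of the knockout) and replicates 1, 2 and 4 were labelled p75NTR-/-, a knockout of the p75 neurotrophin receptor gene Ngfr. The labels give E12.5 embryos as the source, whereas the study's methods describe adult subventricular zone cultures. The study names 4 replicates from independent preparations, while the data hold 2 libraries labelled WT and 3 labelled p75NTR-/-. The labels tie no replicate number to a litter, a day or a batch, so the p-values measure the spread between these libraries only.

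Recovered totals ranged from 11688211 to 14452396 counts, so a single count was worth between 0.981 and 1.20 normalized counts. Ngfr went against the labels. It read 0.98 and 2.08 normalized counts in the libraries labelled WT 1 and WT 4, but 9.89, 141 and 251 in those labelled p75NTR-/- 1, 2 and 4. All directions given here are therefore between labels. The first principal component of all gene sums with a mean of at least 50, with 51.7% of the variance, set the number 4 pair apart. The second, with 36.5%, set WT 1 (score -44.1) apart from the others. Along it lay p75NTR-/- 4 (3.57) and WT 4 (3.94), then p75NTR-/- 2 (12.6) and p75NTR-/- 1 (24.1). The order of the members, from WT 1 over the number 4 pair to p75NTR-/- 1 and 2, was thus also that of this axis over all such gene sums. All 12 neural progenitor markers were listed, including Nes, Sox2 and Fabp7, with summed levels between 7876 and 9187 TPM, most of it from Fabp7 (mean 6627 TPM) and Vim (1173 TPM). Single progenitor markers varied more than the sum. Within number 1, 8 of 12 were lower in p75NTR-/- with a median log2 difference of -0.47, among them Sox2 at -1.09 and Sox1 at -1.35, whereas Nes was 1.41 higher. Hes5, a Notch target, read 546, 25.0, 43.5, 222 and 30.6 normalized counts in WT 1, WT 4 and p75NTR-/- 1, 2 and 4. The 8 markers of microglia and macrophages and the 6 of red blood cells were not listed.

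Summed over the 46 members, the level was 892 and 1584 TPM in WT 1 and WT 4, against 2078, 2103 and 1433 TPM in p75NTR-/- 1, 2 and 4. The highest sums were thus those of p75NTR-/- 1 and 2, and p75NTR-/- 4 lay below WT 4, so the labels overlapped. Relative to each gene's own mean over the 5 libraries on the log2 scale, the median member stood at -0.84 in WT 1, 0.03 in WT 4, 0.45 in p75NTR-/- 1, 0.48 in p75NTR-/- 2 and -0.08 in p75NTR-/- 4. WT 1 was the lowest library for 43 of the 45 members with a mean of at least 50 (33.3% of all 10786 such gene sums), and p75NTR-/- 1 and 2 were both above the other libraries for 39 of 45 (22.8%). The full order, with WT 1 below both number 4 libraries and these below p75NTR-/- 1 and 2, was held by 38 of 45 members (12.1%). The members that broke it were Cdt1, Gins4, Pold2, Rfc1, Fen1, Ccne1 and E2f1, besides Gins3. In bulk RNA, fewer cells in S phase and less of these RNAs per cell cannot be told apart.

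**Figure D1:**
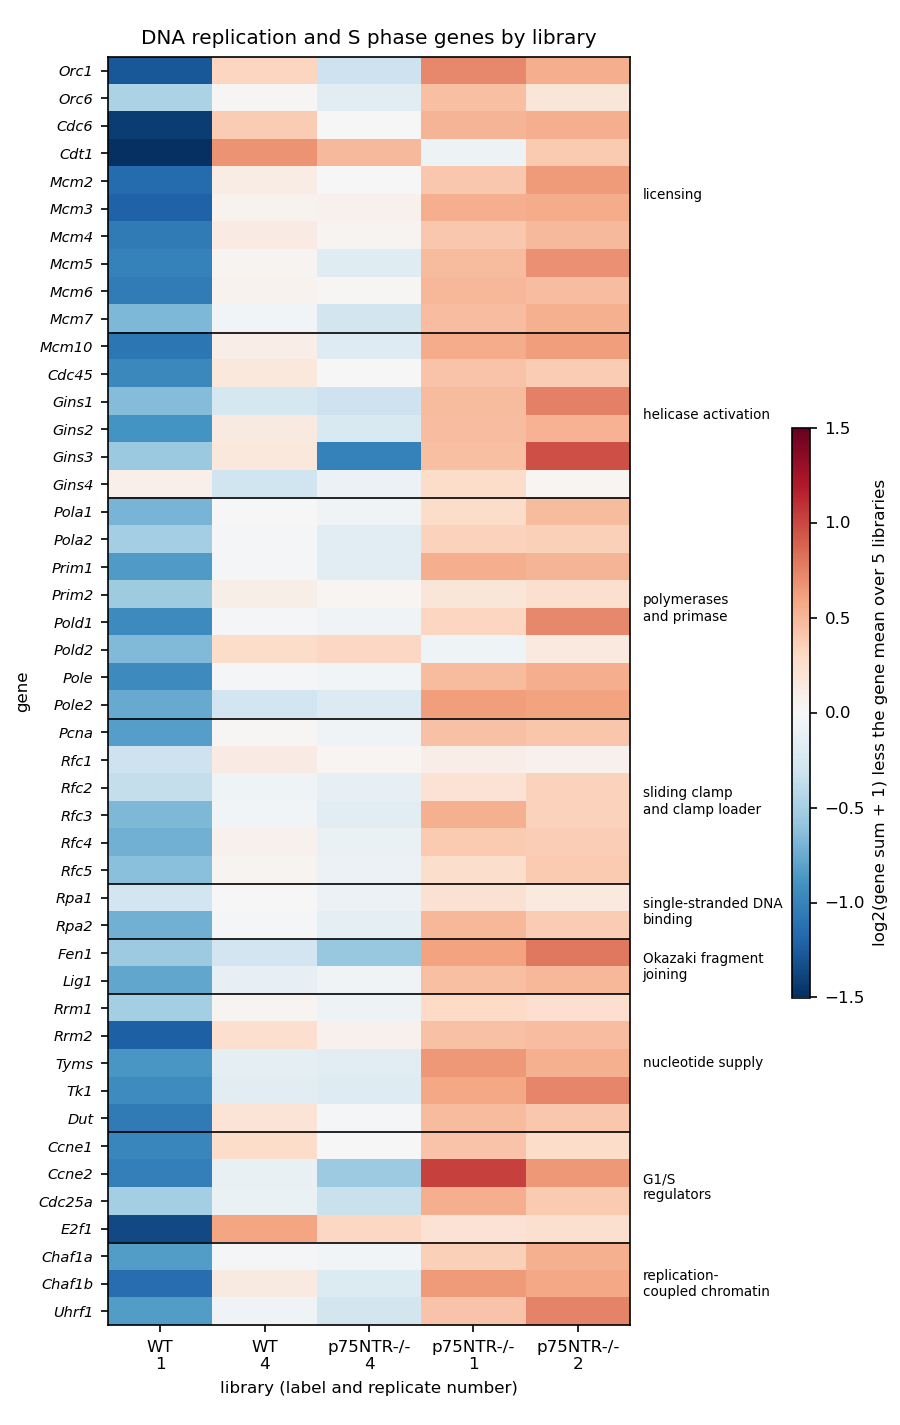
Heatmap of the 46 members (rows, by role) in the 5 libraries (columns), coloured by log2(gene sum of normalized counts + 1) less the gene's mean over the 5 libraries. WT 1 is the bluest column for 43 of the 45 members with a mean of at least 50, and p75NTR-/- 1 and 2 are the reddest for most rows.

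Between labels, no member was called by limma at an adjusted p under 0.05, a fold of at least 1.5 and a mean of at least 50, and of all gene sums 0.00794% were called. Every one of the 46 had a higher mean in the libraries labelled p75NTR-/-, with log2 differences from 0.16 to 0.97 and a median of 0.69, against a median of 0.02 for all gene sums with a mean of at least 50, of which 52.6% had a higher mean there. At an unadjusted p under 0.05, 0 of 46 members were higher (0.866% of all gene sums) and 0 lower (1.22%), and the adjusted p ranged from 0.934 to 0.953. On the recovered counts, DESeq2 called 0 members (0.0556% of gene sums) and gave 13 of 46 an unadjusted p under 0.05 (28.3%, against 2.99% of all gene sums in either direction), and edgeR's quasi-likelihood test called 0 (0.0%) and gave 4 of 46 (8.7%, against 2.11%). All 3 libraries labelled p75NTR-/- were above both labelled WT for 3 of 45 members (7.76% of gene sums), namely Mcm3, Pole2 and Lig1, and below both for 0 of 45 (6.96%). The median depended on WT 1. It was 0.23 without that library, with 39 of 46 members higher, and 1.13 without WT 4.

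The libraries were also read by replicate number, number 4 against numbers 1 and 2 with the label as a covariate. No member was called (0.254% of all gene sums were), and 0 of 46 had an unadjusted p under 0.05 in either direction, against 11.0% of gene sums higher and 8.93% lower in number 4. The median log2 difference was 0.05, with 27 members above 0, and the lowest adjusted p was 0.278. DESeq2 and edgeR also called 0 members in this comparison, with 6.41% and 2.21% of gene sums called. Both number 4 libraries were above the other 3 for 3 of 45 members (23.0% of gene sums), namely Cdt1, Pold2 and E2f1, and below them for 1 (22.0%), Gins4. The median of 0.05 joins opposite differences in the 2 labels. WT 4 was above WT 1 for 45 of 46 members, by a median of 0.80 (0.03 for all gene sums with a mean of at least 50). p75NTR-/- 4 was above p75NTR-/- 1 for 3 of 46 and above p75NTR-/- 2 for 3, with medians of -0.50 and -0.53. The matching medians over such gene sums were -0.02 and -0.01. Without p75NTR-/- 4 the fit by number reads only WT 4 against WT 1, at 0.80. Without WT 1 or without WT 4 it reads only p75NTR-/- 4 against p75NTR-/- 1 and 2, at -0.52.

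The difference between labels was not alike at the different numbers. Within number 1, all 46 members were higher in the library labelled p75NTR-/-, by a median log2 difference of 1.28 (0.03 for all gene sums with a mean of at least 50), and 41 of 45 were at least 1.5-fold higher (15.1%). Within number 4, p75NTR-/- was below WT for 40 of 45 members (50.5%), by a median log2 difference of -0.13. Only Orc1 among the 45 was at least 1.5-fold lower there (0.751%), and 0 were at least 1.5-fold higher (0.807%). The test of this contrast, the label difference at number 4 less that at numbers 1 and 2, gave a median of -1.49 (-0.03 for all gene sums with a mean of at least 50), and 40 of 46 members had an unadjusted p under 0.05 in that direction, against 8.61% of all gene sums. None passed after adjustment in limma (0.0% of gene sums called), with adjusted p from 0.331 to 0.832. DESeq2 called 15 members (1.6% of gene sums), which were Mcm2 to Mcm7, Mcm10, Pcna, Lig1, Rrm2, Tk1, Dut, Ccne2, Chaf1b and Uhrf1. It gave only 7218 of the 12588 gene sums an adjusted p in this contrast. Orc1, Cdc6, Cdt1, Gins1, Gins3, Cdc25a and E2f1 had none and so could not be called. edgeR called 0 (0.0%), with a lowest adjusted p of 0.0769. Of the 4 combinations of label and number, only p75NTR-/- at numbers 1 and 2 had 2 libraries, so each gene's own spread in this test came from that pair. WT 1, WT 4 and p75NTR-/- 4 were taken to vary alike, and limma also borrowed spread from all gene sums. For Mcm3, p75NTR-/- 1 and 2 differed by 0.005 on the log2 scale while the SE of the contrast was 0.196, so its spread was largely borrowed.

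**Figure D2:**
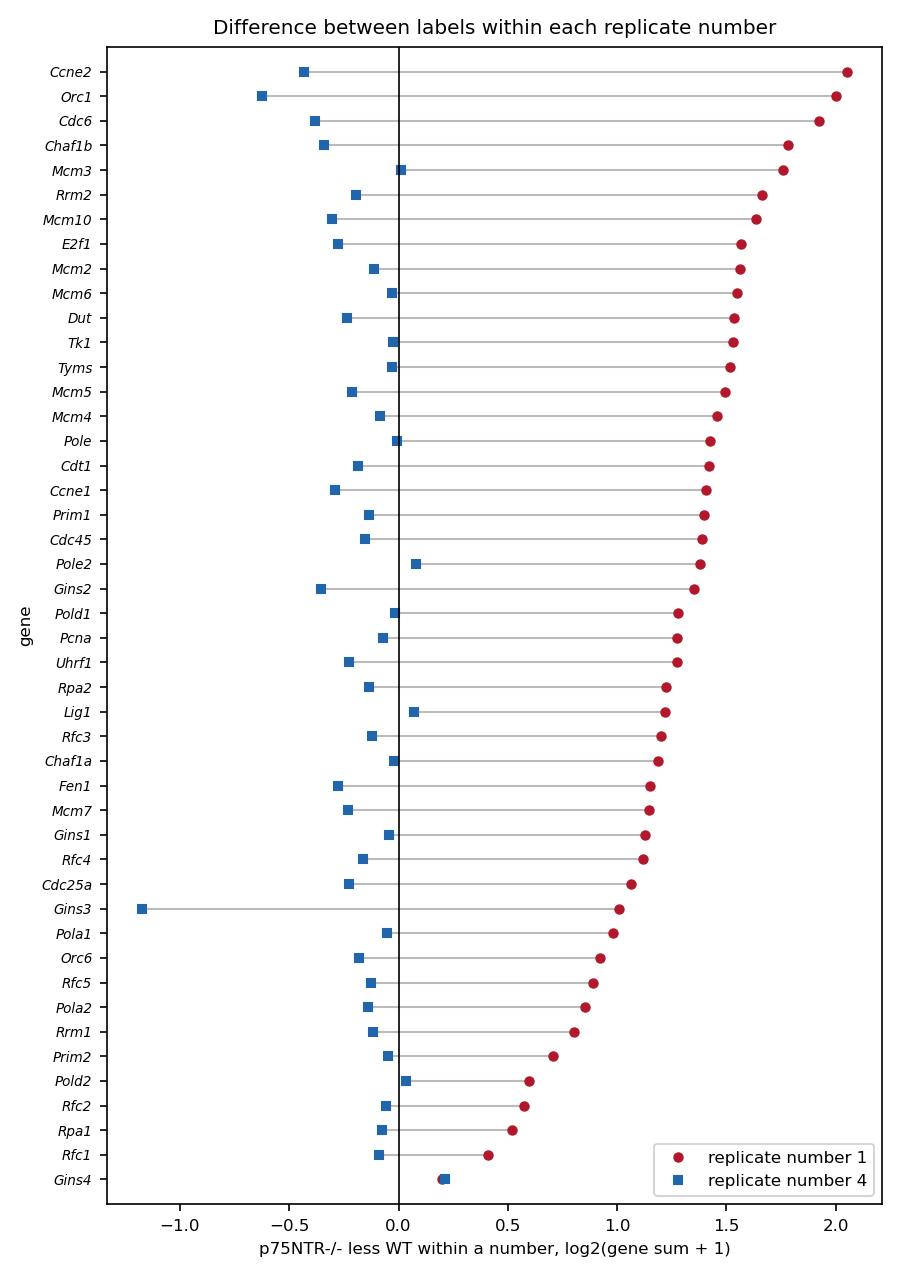
Log2 difference between the libraries labelled p75NTR-/- and WT for each member, within replicate number 1 (circles) and within replicate number 4 (squares), 1 library per label and number. All circles lie above 0, from 0.20 to 2.05, while 41 of the 46 squares lie below 0.

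Library values of single genes are given from here on as normalized counts in a fixed order, WT 1, WT 4, p75NTR-/- 1, p75NTR-/- 2 and p75NTR-/- 4, and coordinates are those of the most abundant listed transcript in GRCm38. Among the licensing genes, 9 of 10 followed the full order and the median difference within number 1 was 1.52, with -0.18 within number 4. Mcm3 (chr1:20802968-20820312), a subunit of the Mcm2-7 ring, read 795, 1908, 2693, 2703 and 1921 normalized counts. Its 3 p75NTR-/- values were above both WT values, but p75NTR-/- 4 and WT 4 were nearly equal, and the log2 difference between labels was 0.97 (SE 0.42, unadjusted p = 0.0710) and 0.34 without WT 1. The other ring subunits, Mcm2 and Mcm4 to Mcm7, held the full order too, with ratios of the highest to the lowest library from 2.31 for Mcm7 to 3.45 for Mcm2. Orc1 (chr4:108579454-108614833), a subunit of the origin recognition complex that is made anew each G1, was the least abundant member per length, with 32.4, 99.9, 133, 117 and 64.4 normalized counts. Cdc6 (chr11:98908151-98921893), the ATPase that joins the origin complex to load Mcm2-7, read 77.5, 272, 297, 305 and 208 normalized counts. In both genes WT 1 was the lowest library and p75NTR-/- 4 the next, and the difference within number 1 was 2.00 for Orc1 and 1.92 for Cdc6 on the log2 scale.

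Cdt1 (chr8:122568015-122573128), the loading factor that geminin holds back after licensing, was the member of this group outside the order. It read 84.4, 384, 228, 316 and 337 normalized counts. WT 4 and p75NTR-/- 4 held the highest values, and the log2 difference of number 4 from numbers 1 and 2 was 1.12 (SE 0.49, unadjusted p = 0.0833), the highest of the 46. Orc6, the small subunit of the origin complex, had the narrowest range of the group, from 406 to 769.8 normalized counts.

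Promoter sequences were read for letters that the rule did not use. RefSeq promoters (GRCm38.p6, 250 bases before to 50 after each gene's start) were matched for 38 of the 46 members. They were searched on both strands for 4 forms of the E2F consensus, TTTCCCGC, TTTCGCGC, TTTGCCGC and TTTGGCGC, with overlapping matches allowed. A match was found for 15 of 38 members (39.5%), against 2.6% of 27025 genes with a RefSeq promoter and 4.8% of those in the data. The lists most like the members held it in 8 of 26 promoters (30.8%, other replication genes) and 12 of 23 (52.2%, other E2F-regulated S phase genes, a list chosen for E2F). Licensing genes held it in 7 of 9 promoters (77.8%), with Mcm2 and Orc6 the exceptions and Mcm4 not matched to a promoter, polymerase and primase genes in 3 of 6, and nucleotide supply genes in 0 of 5. The matches are shown for 6 members, so that the shared letters can be seen across roles, with the matched letters in capitals and up to 30 bases on each side.
Mcm6, chr1:128359715-128359845, minus strand: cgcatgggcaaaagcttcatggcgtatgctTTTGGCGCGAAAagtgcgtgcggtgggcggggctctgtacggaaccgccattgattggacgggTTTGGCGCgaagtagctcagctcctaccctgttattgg
Mcm5, chr8:75109326-75109397, plus strand: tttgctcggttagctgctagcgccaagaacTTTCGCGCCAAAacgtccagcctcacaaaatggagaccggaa
Orc1, chr4:108579397-108579453, plus strand: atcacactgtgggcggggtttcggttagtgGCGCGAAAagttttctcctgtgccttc
Cdc6, chr11:98907983-98908050, plus strand: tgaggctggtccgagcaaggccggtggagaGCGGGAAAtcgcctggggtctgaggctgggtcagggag
Cdc25a, chr9:109875482-109875549, plus strand: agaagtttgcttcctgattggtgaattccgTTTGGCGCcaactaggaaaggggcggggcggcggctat
Pola1, chrX:93632256-93632323, minus strand: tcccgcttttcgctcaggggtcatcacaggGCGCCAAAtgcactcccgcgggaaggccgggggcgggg
The 12-letter runs in Mcm6 and Mcm5 each hold a pair of overlapping matches on opposite strands, and Mcm6 holds a further match nearer its start. A match is a description of letters and not a binding site. The members with a match had a median difference within number 1 of 1.28 on the log2 scale (n = 15), and those without had 1.27 (n = 23), so the medians with and without these letters were close.

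The helicase activation genes had medians of 1.24 within number 1 and -0.23 within number 4. Mcm10 (chr2:4989714-5012344), which helps start the loaded helicase, read 207, 473, 645, 679 and 383 normalized counts. Cdc45 (chr16:18780447-18811972), a part of the active helicase, read 276, 598, 723, 702 and 538 normalized counts. In both, WT 1 was lowest and p75NTR-/- 1 and 2 were highest, and p75NTR-/- 4 was below WT 4. Gins3 (chr8:95633453-95645060), a subunit of the GINS complex, read 29.4, 48.9, 60.4, 86.5 and 21.1 normalized counts. These are low values, and p75NTR-/- held both the highest and the lowest of them. Its difference within number 4, -1.17, was the lowest of the members, and its log2 difference between labels was 0.34 (SE 0.64, unadjusted p = 0.625).

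Gins4, another subunit of the GINS complex, stood apart from the rest. It ranged only from 311 normalized counts in WT 4 to 463 in p75NTR-/- 1, WT 1 was the second highest library, and both number 4 libraries were its lowest. Per length, Gins4 made up 49.9% of the GINS subunit TPM in WT 1 and between 26.3 and 38.3% in the other libraries, and Gins2 made up 32.8% against 44.9 to 51.6%. Among the Mcm2-7 subunits, Mcm7 took 27.5% in WT 1 against 19.1 to 22.0% elsewhere, with each of the other subunits between 13.1 and 19.6%. The make-up of these complexes at the RNA level thus differed between WT 1 and the other libraries. No test was run on these shares, since WT 1 is a single library.

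**Figure D3:**
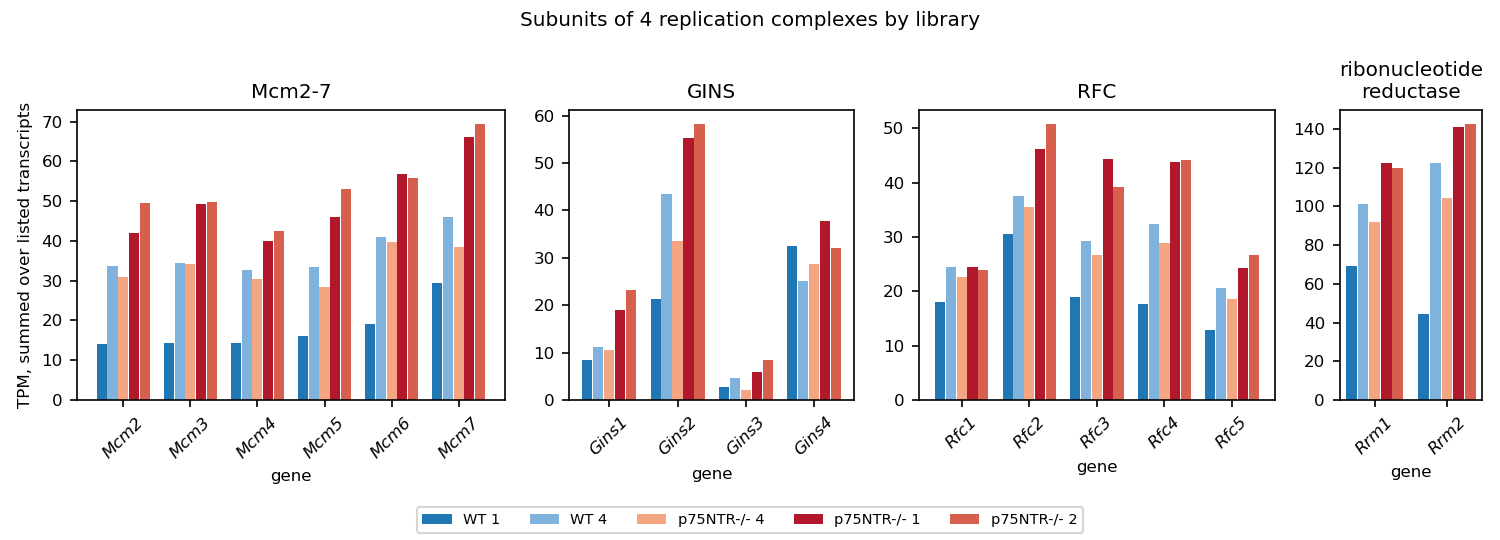
TPM, summed over each gene's listed transcripts, of the subunits of Mcm2-7, GINS, RFC and ribonucleotide reductase, with 1 bar for each library. WT 1 is the lowest bar for all Mcm and RFC subunits and for Rrm1 and Rrm2, but the second highest for Gins4.

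Of the polymerase and primase genes, 7 of 8 followed the full order, with medians of 1.13 within number 1 and -0.03 within number 4. Pole2 (chr12:69201773-69228195), the second subunit of the leading-strand polymerase epsilon, read 179.6, 249, 469, 461 and 263 normalized counts. All 3 p75NTR-/- values were above both WT values, and its unadjusted p between labels was the lowest of the 46, with a log2 difference of 0.86 (SE 0.34, unadjusted p = 0.0508) and 0.63 without WT 1. Pold2 (chr11:5872180-5878292), the second subunit of the lagging-strand polymerase delta, was the exception with 596, 1143, 900.4, 1045 and 1169.5 normalized counts. Its number 4 libraries were the highest, and the log2 difference of number 4 from numbers 1 and 2 was 0.56 (SE 0.22, unadjusted p = 0.0644). Its catalytic partner Pold1 followed the order instead, from 318 in WT 1 to 1025 in p75NTR-/- 2. The primase subunits Prim1 and Prim2, which make the RNA primers, both had their lowest value in WT 1, at 263 and 429 normalized counts, and the highest at 696 and 732.

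Pcna (chr2:132249162-132253314), the sliding clamp that holds polymerases on DNA, was the most abundant member per length, with a mean of 310 TPM. It read 2500.5, 4509.5, 6049.5, 5922 and 4287 normalized counts. WT 1 was lowest, the number 4 libraries lay close together, and p75NTR-/- 1 and 2 were highest, with a log2 difference between labels of 0.67 (SE 0.33, unadjusted p = 0.0945). The clamp loader subunits spanned different ranges. Rfc1 (chr5:65261852-65335621), the large subunit, read 1460.2, 1968, 1942, 1900.5 and 1852 normalized counts, a highest to lowest ratio of 1.35, the narrowest of the 46. Rfc2 (chr5:134582690-134601805), a small subunit, read 661, 810.4, 985, 1079 and 779.6 normalized counts. Rfc3, Rfc4 and Rfc5 spanned wider ranges, with ratios of 2.31, 2.17 and 2.03. As a share of the RFC subunit TPM, Rfc1 lay between 13.0% in p75NTR-/- 2 and 18.4% in WT 1.

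The single-stranded DNA binding genes had a median of 0.87 within number 1. Rpa1 (chr11:75298166-75348324), the large subunit that coats unwound DNA, read 1996, 2425, 2864, 2695 and 2299.9 normalized counts, with a mean of 59.1 TPM. Rpa2 (chr4:132768335-132778752), the middle subunit that is phosphorylated upon damage, read 309, 507, 724, 666 and 462 normalized counts. Both followed the full order, but the difference within number 1 was 0.52 for Rpa1 and 1.23 for Rpa2.

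Lig1 and Fen1, which join Okazaki fragments, had a median of 1.19 within number 1. Lig1 (chr7:13279265-13311425), the ligase that seals the nicks, read 874, 1374, 2040.2, 2122 and 1445 normalized counts. It was the third member whose labels did not overlap, with a log2 difference of 0.75 (SE 0.30, unadjusted p = 0.0522) and 0.42 without WT 1. Fen1 (chr19:10199132-10204169), the nuclease that trims the flaps, read 238, 286, 530.4, 603 and 236 normalized counts. Its lowest value was that of p75NTR-/- 4, slightly under WT 1, so p75NTR-/- 1 and 2 were high and the other 3 libraries lay between 236 and 286.

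All 5 nucleotide supply genes followed the full order, with a median of 1.53 within number 1 and -0.12 within number 4. Rrm2 (chr12:24708241-24714146), the cell-cycle regulated small subunit of ribonucleotide reductase, read 1052, 2922, 3334, 3375 and 2553 normalized counts, with a mean of 111 TPM. Rrm1 (chr7:102441695-102469771), its large subunit, read 3814, 5575, 6661, 6488 and 5133 normalized counts, with a mean of 101 TPM. The subunits differed in range, since Rrm2 made up 39.1% of the pair in WT 1 and 53.2 to 54.8% in the other libraries. Tk1 (chr11:117815526-117826092), the thymidine kinase of S phase, read 351, 603, 1016, 1123 and 593 normalized counts, and had the highest log2 difference between labels of this group at 0.93 (SE 0.39, unadjusted p = 0.0631). Dut (chr2:125247482-125258608), which keeps uracil out of DNA, read 229.6, 554, 667, 636 and 470.1 normalized counts, with a mean of 72.6 TPM. Tyms, the enzyme that makes thymidylate, went from 304 in WT 1 to 872 in p75NTR-/- 1.

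The G1/S regulators had medians of 1.49 within number 1 and -0.28 within number 4, and 2 of 4 followed the order. Ccne2 (chr4:11191730-11204682), a cyclin that activates Cdk2, read 150.2, 283, 625, 483 and 209 normalized counts. WT 1 and p75NTR-/- 4 were its lowest libraries and p75NTR-/- 1 its highest, and the difference within number 1, 2.05, was the largest of the 46. E2f1 (chr2:154559407-154569892), an activating member of the E2F family, read 99.1, 382, 296, 299 and 315 normalized counts. WT 1 was low and the other 4 libraries lay together, with WT 4 the highest. Ccne1, the other E cyclin, ranged from 187 to 499, and Cdc25a, the phosphatase that frees Cdk2 from inhibition, from 136 to 286 normalized counts.

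The chromatin genes that work at the fork had medians of 1.27 within number 1 and -0.23 within number 4, and all 3 followed the order. Chaf1b (chr16:93883901-93906115), a subunit of the histone chaperone CAF-1, read 219.8, 534, 758, 724 and 420.5 normalized counts. Uhrf1 (chr17:56303321-56323486), which brings Dnmt1 to newly copied DNA, read 756, 1304, 1826, 2262 and 1114 normalized counts. WT 1 was the lowest and p75NTR-/- 1 and 2 the highest in each, with p75NTR-/- 4 under WT 4. Chaf1a, the large CAF-1 subunit, went from 361 in WT 1 to 929.9 in p75NTR-/- 2.

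Since the data list transcripts, the members were also read by transcript. Of the 46 genes, 31 had 1 listed transcript, 11 had 2 and 4 had 3, and the most abundant was protein coding in each case. No transcript of a member was called between labels. An unadjusted p under 0.05 was reached by 2 of 65 (3.08%, against 3.14% of all transcripts), ENSMUST00000165143 of Pola2, the polymerase alpha accessory subunit (unadjusted p = 0.0190), and ENSMUST00000029866 of Ccne2 (unadjusted p = 0.0499), with a lowest adjusted p of 0.962. edgeR also called 0 of the 65 and gave 4 an unadjusted p under 0.05 (6.15%, against 2.52%). In limma the members' share was thus near that of all transcripts, and single transcripts are given as a description, with E2f1 and Uhrf1 chosen after their values were seen. The minor Ccne2 transcript, ENSMUST00000029866, read 19.6, 47.9, 66.3, 115 and 67.6 normalized counts and the major one, ENSMUST00000108324, read 130.5, 235, 559, 368 and 142 normalized counts. In number 4 the major Ccne2 transcript was lower in p75NTR-/- and the minor one higher. For E2f1, ENSMUST00000000894 read 9.81, 184, 95.0, 79.3 and 80.3 normalized counts and ENSMUST00000103145 read 89.3, 198, 201, 219.8 and 234 normalized counts, so the high WT 4 gene sum came with the first of these and WT 1 was low in both. Uhrf1 split unevenly as well, with ENSMUST00000113038 at 163, 310.0, 155, 394 and 186 normalized counts, an order unlike that of its gene sum. Reads shared by transcripts of a gene were divided by the quantification, so these splits are less certain than the gene sums.

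Other genes of the same pathways were read from lists that hold no member. Of 32 other replication genes, 30 were higher in the library labelled p75NTR-/- within number 1 (5660 of all 10786 gene sums with a mean of at least 50 were). Their median log2 difference was 0.85 within number 1 and -0.09 within number 4. The values were 0.91 and -0.09 for 16 other nucleotide supply genes and 1.11 and -0.10 for 28 other E2F-regulated S phase genes. limma called no gene of these lists between labels or by number. In limma the contrast between numbers had an unadjusted p under 0.05 in the members' direction for 15 of 32, 12 of 16 and 21 of 28 (8.61% of all gene sums). In the opposite direction it did for 1 of 32, 0 of 16 and 0 of 28 (6.32% of all gene sums). Dscc1, a subunit of the alternative clamp loader, was the only one with an unadjusted p under 0.05 between labels, and it read 24.5, 70.7, 128, 107 and 81.3 normalized counts (log2 difference between labels 1.29, SE 0.49, adjusted p = 0.934). That was 1 of the 76 genes of these lists higher (0.866% of all gene sums in limma) and 0 lower (1.22%). By number, the origin subunit Orc4 (0.55, SE 0.16, unadjusted p = 0.0264) was higher in number 4. The RNase H2 subunit Rnaseh2b (-0.49, SE 0.14, unadjusted p = 0.0246) and Casp8ap2, a gene tied to histone RNA processing (-0.57, SE 0.20, unadjusted p = 0.0464), were lower there. In limma, 1 of the 76 genes was thus past this p higher in number 4 (11.0% of all gene sums) and 2 lower (8.93%). Both shares were below those of all gene sums.

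Genes used later and earlier in the cell cycle were read beside the members. The 20 mitosis genes had medians of 0.69 within number 1 and -0.09 within number 4. All 20 were higher in p75NTR-/- within number 1 (5660 of all 10786 gene sums with a mean of at least 50 were). In the contrast between numbers, 15 of 20 were past an unadjusted p of 0.05 in the members' direction in limma (8.61% of all gene sums). Cenpf, a kinetochore protein, was the only one past an unadjusted p of 0.05 by number, with 1840.0, 1462, 2039, 2316 and 1370.0 normalized counts. That was 1 of 20 lower in number 4 (8.93% of all gene sums in limma) and 0 higher (11.0%). The 11 listed G1 cyclins, Cdks and Cdk inhibitors (Cdkn1c was not listed) had a median of -0.10 within number 1 and close to 0 within number 4. The full order was followed by 0 of 11, against 12.1% of all gene sums with a mean of at least 50. The median covers genes that went both ways. In the contrast between numbers 2 of 11 had an unadjusted p under 0.05 in the members' direction (8.61% of all gene sums), the D cyclins Ccnd1 and Ccnd2. In the opposite direction 1 did (6.32%), Cdk6, and all of these were named after their values were seen. Ccnd1 read 2250.0, 9953, 8964, 8336 and 8677 normalized counts and Ccnd2 read 1714, 4466, 3813, 3103 and 3812 normalized counts, so both were lowest in WT 1, and their log2 differences within number 1 were 1.99 and 1.15. No test compared this list with the members. By number, Cdkn1a, an inhibitor induced by p53, read 1924, 3201, 2529, 2308 and 3592 normalized counts and was higher in number 4 (unadjusted p = 0.0110). Cdkn2c, an inhibitor of Cdk4 and Cdk6, read 1000.0, 774, 1204, 1242 and 751 normalized counts, and Cdk4 read 9761, 7118, 9093, 9808 and 7074 normalized counts, both lower in number 4 (unadjusted p = 0.0225 and 0.0341). These were 1 of 11 genes higher in number 4 (11.0% of all gene sums in limma) and 2 of 11 lower (8.93%). Adjusted over all gene sums, none of the genes named here passed.

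Summed, the astrocyte markers ranked the libraries in the reverse of the members' order. All 8 were listed, and their summed level was 2634 and 1816 TPM in WT 1 and WT 4 and 1286, 1246 and 1903 TPM in p75NTR-/- 1, 2 and 4. All 8 were lower in p75NTR-/- within number 1, by a median log2 difference of -1.51. Over all gene sums with a mean of at least 50 that median was 0.03, with 5660 of 10786 higher. Single markers did not all follow the sum, since WT 4 was above WT 1 for 3 of 8 and p75NTR-/- 4 above WT 4 for 4 of 8. Gfap, an intermediate filament protein of astrocytes and of the astrocyte-like stem cells of the subventricular zone, read 241, 680.3, 11.9, 1.20 and 746 normalized counts, and was highest in the number 4 pair rather than in WT 1, which had the lowest member levels. Of 10 neuron markers 6 were listed, with summed levels between 689 and 997 TPM over the 5 libraries, and Dcx, Rbfox3, Stmn2 and Slc17a6 were not. Of 8 oligodendrocyte lineage markers 5 were listed, with summed levels of 729, 347, 419, 728 and 338 TPM in WT 1, WT 4 and p75NTR-/- 1, 2 and 4, and Sox10, Mbp and Mog were not. Within number 1, 0 of 6 neuron and 0 of 5 oligodendrocyte lineage markers were higher in p75NTR-/-. Their medians there were -0.29 and -1.645, so lower values within number 1 were not particular to astrocyte markers. The list of 6 endothelial markers had 2 listed and that of 6 mesenchymal markers had 1. The part of other cell states in the members' levels was not tested.

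**Figure D4:**
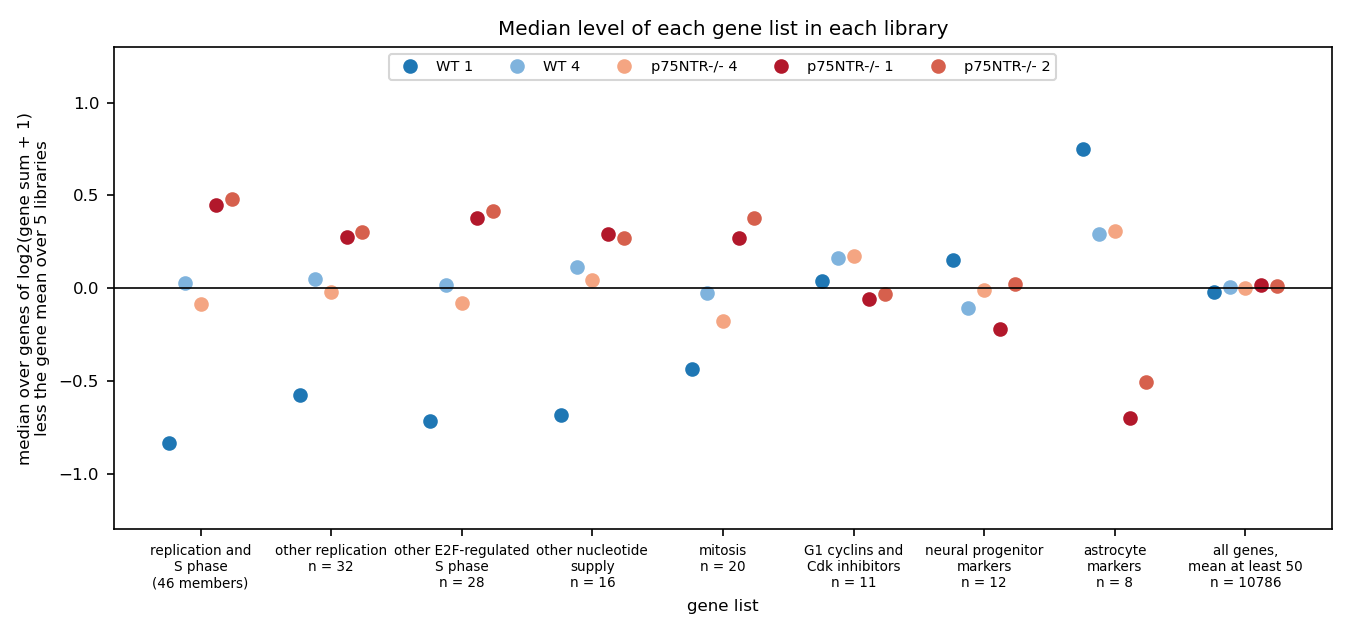
Median over the genes of each list of log2(gene sum + 1) less the gene's mean over the 5 libraries, with 1 point for each library. The members and the other S phase and mitosis lists have WT 1 lowest and p75NTR-/- 1 and 2 highest, astrocyte markers have WT 1 highest and p75NTR-/- 1 and 2 lowest, and all gene sums with a mean of at least 50 lie near 0 in every library.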

How the data were processed

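RNA was measured by stranded mRNA-Seq, from 500 ng RNA per sample, in 5 libraries. Per the labels and the study's methods, the authors ran Salmon 0.10.2 on Ensembl transcripts (GRCm38.p6), then tximport and DESeq2 1.22.0 in R 3.6.1. Each deposited signal value equals a normalized count, that is a count over the size factor of its library, plus 0.5. The authors' TPM columns were treated as a deposited score, since repeated lines push their sums past the total that TPM allows. The authors' baseMean score, log2 fold change and p-value columns hold their own comparison and were not used. No column of per-sample values was left unused.

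Of 22530 lines, 303 repeated a transcript and were dropped. The value less 0.5 was summed per symbol, which gave 12588 gene sums. In each library 100% of the values were whole multiples of a single step, and these counts were recovered by division. limma 3.58.1 (lmFit, eBayes) was run on log2(gene sum + 1) over all gene sums, with Benjamini-Hochberg adjustment and the call rule of the study's methods (adjusted p under 0.05, fold of at least 1.5, mean of at least 50). The pseudocount of 1 understates changes of low genes. DESeq2 1.42.0 and edgeR 4.0.16 in R 4.3.3 were run on the recovered counts as alternatives. The other alternatives were the pseudocount, a filter on low values, TMM scaling, a mean-variance trend, the highest transcript per gene, a replicate block, no label covariate, and each library left out. The fits were tested on simulated counts. Python 3.11.15, pandas 2.3.3, numpy 2.4.6 and matplotlib 3.10.9 were used.

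The members, the gene lists and the split of number 4 from numbers 1 and 2 were chosen with earlier results of these data known. By rule, library values are given for the members with the largest positive and negative log2 difference in each role group between labels and by number, for the 5 highest and 3 lowest by TPM, and for any member past an unadjusted p of 0.05. Genes of the other lists are named when past that p, at most 3 per list by number. All other values are named as examples of their group. Transcripts were matched by identifier to GENCODE M21, 65 of 65 for the members.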

Additional observations from a re-analysis of the deposited data

How the results depend on the processing

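Between labels, the members' median log2 difference lay between 0.58 and 0.70 under every setting that kept all 5 libraries, and 0 members were called under any. Leaving out each library in turn gave 0.23 (without WT 1) to 1.13 (without WT 4). The shared numbers were not taken as pairs in the main fit between labels, since only 2 pairs share a number. Deviations from the label means over 10786 gene sums had an r of 0.256 for the number 1 libraries and 0.476 for the number 4 libraries. WT 1 with p75NTR-/- 2 had 0.482. With 2 WT libraries, each r of WT 4 is minus that of WT 1, so these values cannot decide on pairing. The differences within a number are given as a description. With the replicate block the median was 0.59, with 0 members called, and Gins3 was then -0.0807 (-0.0544 in edgeR with the block), while the block changed no other direction. Number 2 holds only p75NTR-/- 2, so the block takes up that library. In limma the differences with the block thus equal those without p75NTR-/- 2, and the block was not a separate check. With a library left out, 8 of 46 members changed sign between labels, Ccne1, Gins4 and 6 of those named by rule, which had these ranges: Cdt1 (-0.41 to 1.77), Gins3 (-0.0807 to 0.91), Pold2 (-0.15 to 0.79), Rfc1 (-0.0524 to 0.38), E2f1 (-0.33 to 1.60) and Cdc6 (-0.0286 to 1.77). By replicate number the median ranged from -0.52 (without WT 1 or without WT 4) to 0.80 (without p75NTR-/- 4), and 42 of 46 members changed sign with a library left out, 22 of them named by rule, with these ranges: Mcm3 (-0.49 to 1.26), Mcm7 (-0.77 to 0.63), Mcm10 (-0.79 to 1.19), Cdc45 (-0.41 to 1.11), Gins3 (-1.73 to 0.71), Pole2 (-0.82 to 0.47), Pcna (-0.48 to 0.85), Rfc1 (-0.053 to 0.43), Rfc2 (-0.40 to 0.29), Rpa2 (-0.59 to 0.71), Rpa1 (-0.27 to 0.28), Lig1 (-0.53 to 0.65), Fen1 (-1.26 to 0.26), Tk1 (-0.85 to 0.78), Rrm2 (-0.39 to 1.47), Ccne2 (-1.39 to 0.91), Chaf1b (-0.82 to 1.28), Uhrf1 (-0.87 to 0.79), Rrm1 (-0.36 to 0.55), Dut (-0.47 to 1.27), Orc1 (-0.94 to 1.60) and Cdc6 (-0.53 to 1.79). Leaving out a library by number changes which libraries are compared. Without p75NTR-/- 4 the fit reads only WT 4 against WT 1. Without WT 1 or without WT 4 it reads only p75NTR-/- 4 against p75NTR-/- 1 and 2, so these ranges also hold the opposite differences within the labels. Without the label as covariate 12 of 46 changed sign by number, and the values of those named by rule were -0.0769 for Mcm10, -0.0252 for Pcna, -0.0616 for Chaf1b and -0.0355 for Rrm1. For the contrast between numbers, DESeq2 called 15 members where limma and edgeR called 0, and this contrast could not be fitted with a library left out, since either a combination of label and number was then empty or, without p75NTR-/- 1 or 2, no residual degrees of freedom remained. Over all gene sums, limma called 32 by number, against 807 with DESeq2, 272 with edgeR, 174 with a minimum mean of 50, 212 with a mean-variance trend, 133 with a pseudocount of 8, 20 with one of 0.5, 126 without the label and 0 with the highest transcript or any library left out. Between labels limma called 1, DESeq2 7 and edgeR 0, and the contrast between numbers had 201 calls in DESeq2, which gave 7218 of 12588 gene sums an adjusted p there, and 0 in limma and edgeR. The edgeR block and both other tools for the contrast were added after seeing the data. The cause of these changes was not tested. Depth limited Gins3 most, with a mean of 49.3 normalized counts.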
